A study of Mus musculus with 12 samples.

Results

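Proximal T cell receptor signalling genes encode the receptor's signalling chains and the kinases, adaptors, phosphatases and ubiquitin ligases that act on them in the first steps after antigen is bound. The set described here was chosen as a list of 41 gene symbols, and each matched 1 row of the 55487 in the deposited count table. All 41 passed the filter on low counts, with between 524 and 49918 counts in every library. Most are T cell genes by textbook knowledge, and the list mixes positive and negative regulators.

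The study profiled messenger RNA of flow-sorted CD4+ T cells from spleen and peripheral lymph nodes of mice, in 4 groups of 3 libraries. They were KO effector cells (libraries 10, 11 and 12), KO naive cells (7, 8 and 9), WT effector cells (4, 5 and 6) and WT naive cells (1, 2 and 3), where KO mice lack Rinl, an exchange factor of RAB5 family GTPases, and WT mice are wild type. The naive sort (cells yet to meet antigen) was CD44lo and the effector sort CD44hi, and the series title calls the cells ex vivo isolated. The labels give no age, sex or strain, do not say which part of Rinl was altered or whether it was lost in all cells, and do not tie each library to an animal of its own. P-values therefore reflect library-to-library spread alone, which may be technical.

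T cell receptors have no kinase of their own. LCK, held near the receptor by the coreceptor CD4, phosphorylates the CD3 and zeta chains, ZAP-70 binds the phosphorylated chains and is activated there, and it phosphorylates the scaffold LAT and the adaptor SLP-76. Phospholipase C gamma and exchange factors for RAS then assemble on LAT and open the calcium to NFAT, protein kinase C to NF-kB, and RAS to ERK branches, while phosphatases, CSK, CBL ligases and diacylglycerol kinases limit the signal. In resting T cells these proteins are already present. The values here are of RNA alone, and give neither the amount of each protein nor whether it is active.

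Total counts were 11606251 to 20381010 in KO effector, 20072199 to 24320247 in KO naive, 12893396 to 16428862 in WT effector and 12409965 to 19584111 in WT naive libraries. Rinl itself averaged 47.6 and 33.0 CPM in KO effector and KO naive libraries, against 450 and 294 CPM in WT effector and WT naive libraries. CPM are counts scaled to a common library size. Checked against the sort label, the 6 CD4+ T cell markers, of which Cd3e, Cd4 and Cd5 are also among the 41, summed to 3367 to 3481 CPM in KO effector, 3137 to 3196 CPM in KO naive, 3384 to 3529 CPM in WT effector and 3362 to 3455 CPM in WT naive libraries. Of the 6, Il7r was called lower in KO in effector (-0.42 ± 0.096 log2, edgeR adjusted p = 0.037) and in naive cells (-0.52 ± 0.095, edgeR adjusted p = 0.025). Cd8a and Cd8b1 together summed to at most 21.8 CPM. The 6 myeloid markers summed to at most 27.9 CPM. The 7 B cell markers summed to 1058 to 1288 CPM in KO effector, 540 to 593 CPM in KO naive, 903 to 1076 CPM in WT effector and 587 to 621 CPM in WT naive libraries, and their part in the results was not tested. In bulk samples fewer cells of a type and less RNA per cell cannot be told apart, which holds for every difference given here.

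Together the 41 genes took 1.76% to 1.83% of all counts in each of the 12 libraries. That share was 1.81% to 1.83% in KO effector, 1.76% to 1.78% in KO naive, 1.79% to 1.82% in WT effector and 1.76% to 1.79% in WT naive libraries. Single genes changed in opposite directions within this sum.

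Levels of different genes are compared per gene length, as FPKM, fragments scaled by gene length and depth, from the authors' deposited table. In WT naive cells the order ran from Dgka, a diacylglycerol kinase, at 695 ± 17.8 FPKM (SD, n = 3) to Ubash3b, a phosphatase of ZAP-70, at 7.54 ± 0.302 FPKM. After Dgka came Cd3g at 554 ± 23.1 FPKM and Lat at 548 ± 17.2 FPKM, which differed by less than their spread, then Lck at 456 ± 12.4 FPKM and Ptprc, the CD45 phosphatase, at 412 ± 12.4 FPKM. Near the other end were the exchange factor Sos1 at 9.07 ± 0.0865 FPKM and the adaptor Nck1 at 9.37 ± 0.138 FPKM. Among the chains of the receptor, Cd247, which encodes zeta, was the lowest per length in WT naive cells at 116 ± 6.59 FPKM, below Cd3d at 269 ± 10.7 and Cd3e at 320.2 ± 4.85 FPKM. In effector cells the order changed for some genes. Dgka ranked 6 of the 41 in effector cells and 1 in naive cells of both genotypes, and Grap2 ranked 25 in effector cells and 11 in naive cells of both.

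**Figure D1:**
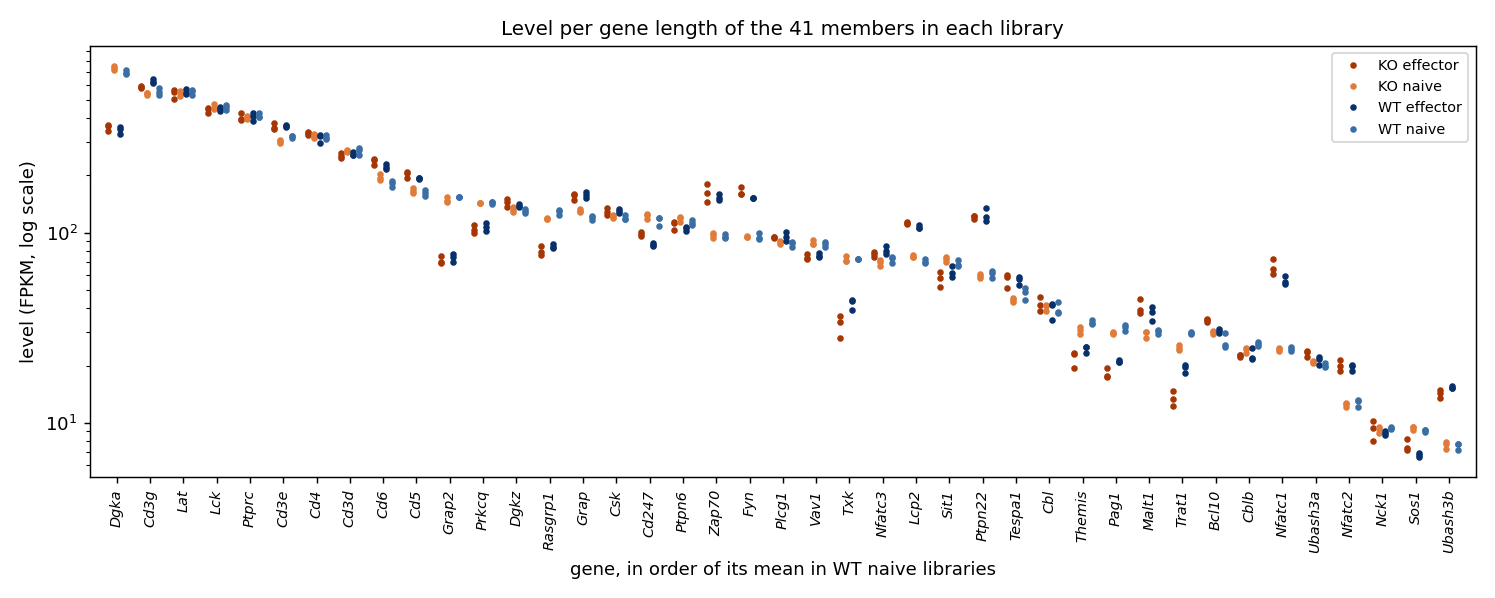
Level of each of the 41 genes per gene length (FPKM, log scale, vertical axis), with genes in order of their WT naive mean; each point is 1 library, and colours mark the 4 groups. Effector and naive points separate for genes such as Dgka, Grap2, Txk, Ptpn22 and Nfatc1, while Lat, Lck and Ptprc lie together in all 12 libraries.

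Loss of Rinl went with few and small changes in these genes. In effector cells 5 of 41 passed the test, with Trat1, Txk and Pag1 lower and Cd247 and Nfatc1 higher in KO (12.2% of the list, where 3.16% of the 15905 genes tested were called, 1.45% higher and 1.72% lower). In naive cells 1 of 41 passed the test, Trat1, which was lower in KO (2.44% of the list, where 1.18% of all genes tested were called, 0.679% higher and 0.497% lower). All members averaged above 40 CPM, and among the 5402 genes with at least that mean, a level chosen after the values were seen, 4.68% were called in effector and 1.91% in naive cells. Calls are edgeR quasi-likelihood tests with Benjamini-Hochberg adjusted p under 0.05 over all 15905 genes. The median log2 fold change of the 41 was -0.012 in effector and -0.003 in naive cells, against 0.002 and 0.000 over all genes tested.

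**Figure D2:**
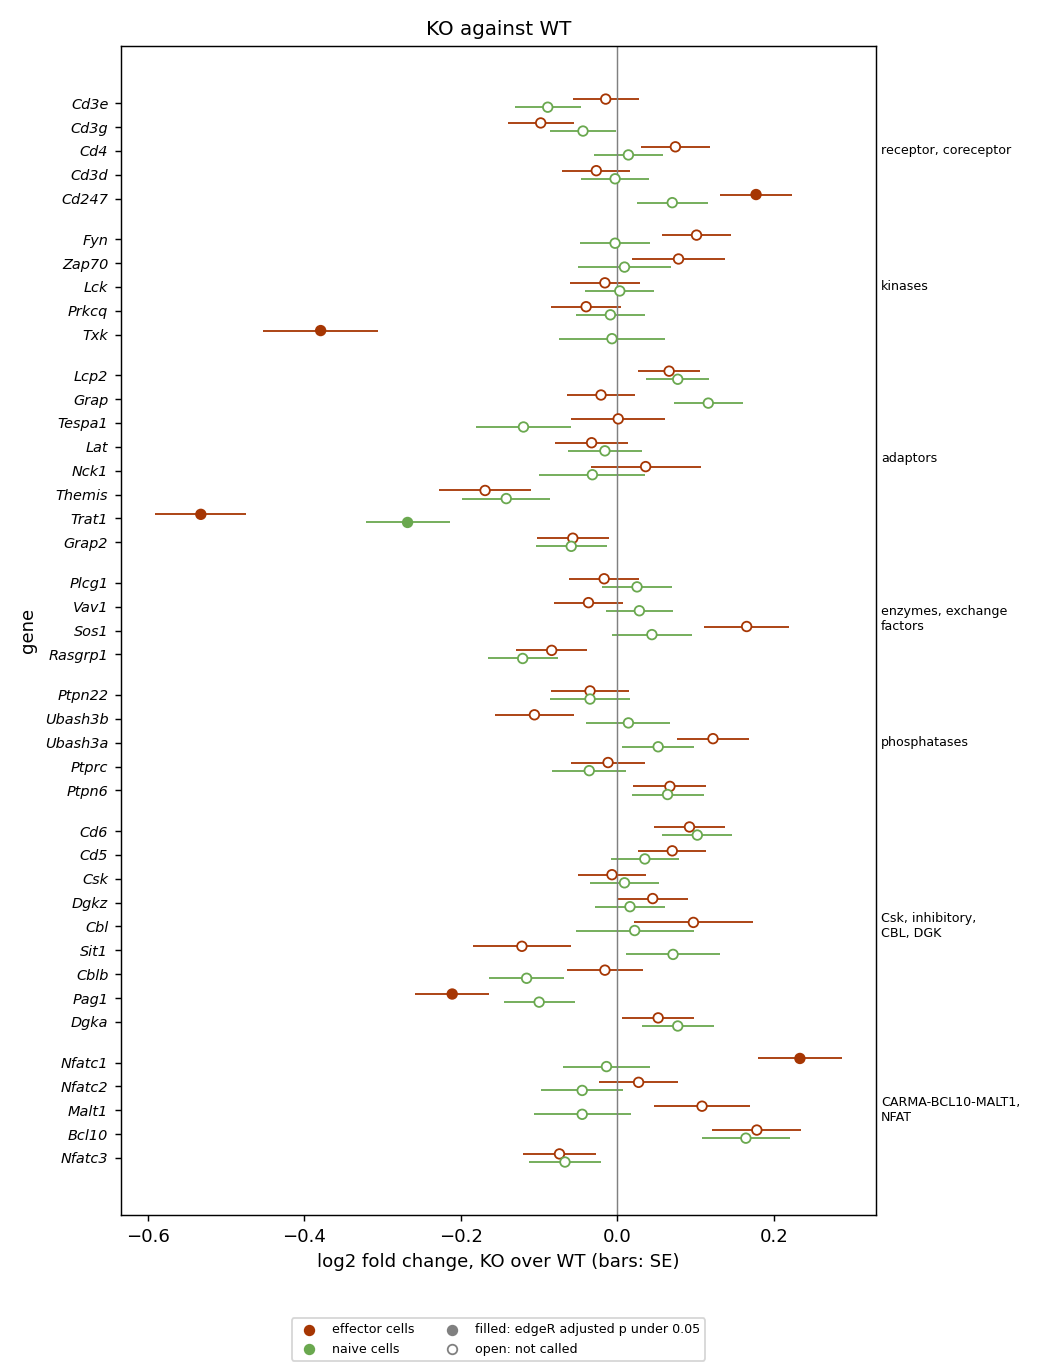
Log2 fold change of KO over WT for each gene (horizontal axis, bars are SE), grouped by role, in effector and naive cells; filled points have an edgeR adjusted p under 0.05. All open points lie between -0.17 and 0.18, and Trat1 is the only gene filled in both cell types.

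Trat1 encodes TRIM, a transmembrane adaptor that associates with the T cell receptor and zeta chains (ENSMUSG00000030775, GRCm38 chromosome 16, 48730774 to 48772021, minus strand). Its level was 68.7, 57.3 and 62.3 CPM in KO effector libraries 10, 11 and 12, against 85.5, 94.4 and 92.3 CPM in WT effector libraries 4, 5 and 6. All 3 KO effector libraries lay below all 3 WT effector libraries, at a log2 fold change of -0.53 ± 0.058 (SE, edgeR adjusted p = 6.9e-06), a 1.45-fold fall. In naive cells the values were 112, 119.5 and 115 CPM in KO libraries 7, 8 and 9, against 139.7, 141 and 137 CPM in WT libraries 1, 2 and 3. Again the groups did not overlap, and the log2 fold change was -0.27 ± 0.054 (edgeR adjusted p = 0.011), a 1.2-fold fall. That naive call was lost without library 2, 7 or 9, with edgeR adjusted p of 0.093, 0.085 and 0.082, whereas the effector call held under all 20 alternatives tried. The difference between the effects in effector and naive cells was -0.26 ± 0.079 (edgeR adjusted p = 0.23) and did not pass. A processed pseudogene, Gm8670, lies within Trat1 on the same strand with 4.16% as many counts, and its own log2 fold change in effector cells was 0.09 (edgeR adjusted p = 0.852).

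Txk encodes RLK, a TEC family kinase that phosphorylates phospholipase C gamma (ENSMUSG00000054892, GRCm38 chromosome 5, 72695978 to 72752777, minus strand). In KO effector libraries it stood at 89.4, 68.7 and 83.5 CPM, against 96.3, 108 and 109 CPM in WT effector libraries. Every KO effector library was below every WT effector library (log2 fold change -0.38 ± 0.074, edgeR adjusted p = 0.0074), and library 11 was the lowest of the 12. The call was lost in a fit of only the groups compared (adjusted p = 0.072) and by limma on log2(FPKM + 0.1) (adjusted p = 0.062). Naive libraries held 184, 175 and 175 CPM in KO and 179.9, 179 and 178 CPM in WT, with overlapping groups and a log2 fold change of -0.007 ± 0.068 (edgeR adjusted p = 0.99). The 2 effects differed by -0.37 ± 0.1, which did not pass over all genes (edgeR adjusted p = 0.21). Pag1 encodes PAG, a raft transmembrane adaptor that recruits the inhibitory kinase CSK (ENSMUSG00000027508, GRCm38 chromosome 3, 9687479 to 9833679, minus strand). Its levels were 161, 147 and 145 CPM in KO effector and 173, 174 and 177 CPM in WT effector libraries, without overlap (log2 fold change -0.21 ± 0.047, edgeR adjusted p = 0.013). KO naive libraries at 242, 247 and 248 CPM also lay below WT naive libraries at 273, 265 and 251 CPM, but the naive change of -0.10 ± 0.045 did not pass (edgeR adjusted p = 0.38). Without library 6, 11 or 12 the effector call of Pag1 was lost, at edgeR adjusted p of 0.062, 0.077 and 0.054.

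Cd247 encodes the zeta chain, which carries most of the receptor's tyrosine activation motifs (ENSMUSG00000005763, GRCm38 chromosome 1, 165788681 to 165877277, plus strand). It reached 438, 460.5 and 448 CPM in KO effector libraries, against 391, 396 and 405 CPM in WT effector libraries, with no overlap and a log2 fold change of 0.18 ± 0.046 (edgeR adjusted p = 0.033). This is a 1.13-fold difference, and the call held under 8 of 20 alternatives, with adjusted p up to 0.14 and a log2 fold change of 0.16 to 0.20 under all of them. It was lost when any of libraries 3, 4, 5, 6, 7, 8, 9, 11 or 12 was left out. Naive values of 567, 573 and 539 CPM in KO and 500, 552 and 548 CPM in WT overlapped (log2 fold change 0.070 ± 0.045, edgeR adjusted p = 0.6). Pou2f1 on the opposite strand overlaps Cd247 with 15.9% as many counts, and the sources do not say whether strand was used in counting. Its log2 fold change was 0.05 in effector cells (edgeR adjusted p = 0.791).

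Nfatc1 encodes a calcium-regulated transcription factor of the NFAT family whose own transcription is induced by receptor signals (ENSMUSG00000033016, GRCm38 chromosome 18, 80606205 to 80713071, minus strand). KO effector libraries held 455, 542 and 481 CPM and WT effector libraries 443, 401 and 413 CPM. The lowest KO effector library, 10, was just above the highest WT effector library, 4, and the log2 fold change was 0.23 ± 0.053 (edgeR adjusted p = 0.015). In naive cells KO libraries at 184, 182 and 178 CPM and WT libraries at 184, 187 and 178 CPM overlapped (log2 fold change -0.014 ± 0.055, edgeR adjusted p = 0.96). The effector call was lost without library 5, 6 or 11, at edgeR adjusted p of 0.083, 0.069 and 0.13.

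**Figure D3:**
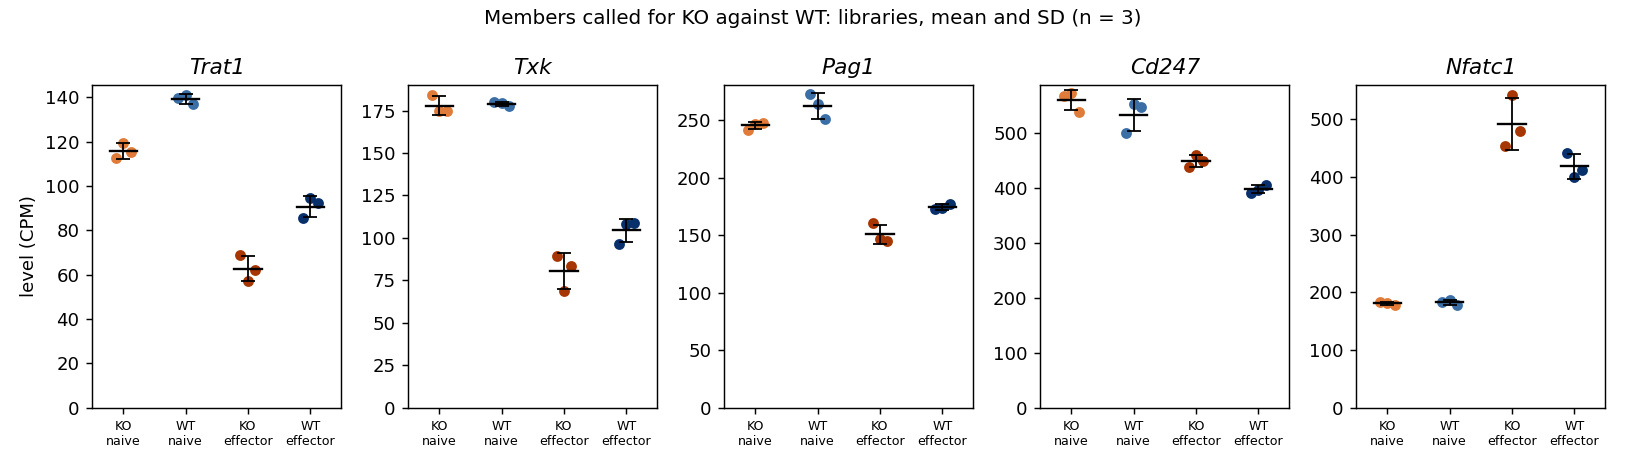
Level (CPM, vertical axis) of the 5 genes called for KO against WT, with 1 point per library, a bar at the mean and whiskers of 1 SD (n = 3). Trat1 is lower in KO in both cell types, Txk and Pag1 are lower and Cd247 and Nfatc1 higher in KO effector than in WT effector libraries, and in naive libraries Txk, Cd247 and Nfatc1 overlap between genotypes.

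Marker sums of other cells in the sort also differed between KO and WT effector libraries. The 4 regulatory T cell markers summed to 1267 to 1481 CPM in KO effector, against 1068 to 1247 CPM in WT effector libraries, with 2 of the 4 called higher and none at 0. The 6 genes that mark NK cells and innate-like T cells (NKT, gamma-delta) summed to 139 to 182 CPM in KO effector, against 215 to 221 CPM in WT effector libraries, with 3 of 6 called lower and none at 0. The 5 markers of the effector sort summed to 2030 to 2226 CPM in KO effector, against 2443 to 2543 CPM in WT effector libraries, with 1 of 5 called lower and none at 0. The 3 plasma cell markers summed to 59.6 to 80.0 CPM in KO effector, against 19.5 to 35.9 CPM in WT effector libraries, without overlap and with none of the 3 called. Most of that sum was Igkc, at a mean of 58.9 CPM in KO effector and 23.8 CPM in WT effector libraries. Sdc1 averaged 0.70 and 0.76 CPM in these groups. The part of these 4 marker lists in the changes of Trat1, Txk, Pag1, Cd247 and Nfatc1 was not tested. In naive cells the sums were 148 to 160 CPM in KO and 125 to 138 CPM in WT for regulatory T cell markers, none of the 4 being called, while those of the innate-like and NK genes were 16.9 to 20.2 CPM in KO and 14.9 to 19.6 CPM in WT, where 1 of the 6 was at 0. Effector sort markers summed to 170 to 184 CPM in KO naive, against 153 to 172 CPM in WT naive libraries, with 2 of 5 called higher, S100a6 (1.94 ± 0.38 log2, edgeR adjusted p = 0.0095) and Il2rb (0.30 ± 0.06, edgeR adjusted p = 0.011). S100a6 was near the floor in both naive groups, with means of 1.02 CPM in KO and 0.27 CPM in WT. Plasma cell markers summed to 29.9 to 43.2 CPM in KO naive, against 2.20 to 15.3 CPM in WT naive libraries, with none of the 3 called. Igkc again made up most of it, at means of 30.7 CPM in KO naive and 5.81 CPM in WT naive libraries.

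The other 36 genes in effector and 40 in naive cells did not pass for KO against WT. Their log2 fold changes ran from -0.17 to 0.18 in effector and from -0.14 to 0.16 in naive cells. Themis, an adaptor needed for thymic selection, had 130.2, 109.6 and 131.7 CPM in KO effector against 132, 142 and 142 CPM in WT effector libraries (-0.17 ± 0.058, edgeR adjusted p = 0.13), and 166, 180 and 175 CPM in KO naive against 189, 196 and 190 CPM in WT naive libraries (-0.14 ± 0.056, edgeR adjusted p = 0.28). It was singled out after its values were seen, as a gene lower in KO without overlap in both cell types that did not pass in either. In effector cells KO library 12, at 131.7 CPM, was only just below WT library 4, at 132 CPM. Themis passed under 1 of 20 alternatives in effector cells (no filter on low counts) and 1 of 20 in naive cells (a fit of only the groups compared). Lcp2 had the same pattern in the other direction. It was higher in KO without overlap in effector (0.066 ± 0.04, edgeR adjusted p = 0.45) and in naive cells (0.077 ± 0.04, edgeR adjusted p = 0.47). Lack of overlap was seen for 12 of 41 genes in effector and 10 of 41 in naive cells, where 17.9% and 20.5% of all genes tested had it. For the central kinases Lck and Zap70 and the scaffold Lat the 95% intervals of the effector log2 fold change were -0.11 to 0.08, -0.05 to 0.2 and -0.13 to 0.06. For Cd4 the interval was -0.02 to 0.16, and for Ptprc -0.11 to 0.09.

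The effect of Rinl loss was not shown to differ between effector and naive cells for any of the 41 genes by edgeR, where 0.145% of all genes tested were called (0.0189% higher and 0.126% lower) and 0.259% of those with a mean of at least 40 CPM. Unadjusted p was under 0.05 for 5 of them, namely Txk, Trat1, Nfatc1, Grap and Sit1, and DESeq2 and limma-voom called 0 as well. The smallest adjusted p was 0.21, for Txk. With no filter on low counts Txk, Trat1 and Nfatc1 passed this test, as Txk and Trat1 did without library 10.

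Effector and naive cells differed in most of these genes, in both directions. In KO cells 18 were higher and 12 lower in effector than in naive cells (73.2%, where 58.4% of all genes tested were called, 31.6% higher and 26.8% lower, and 67.3% of those with a mean of at least 40 CPM). In WT cells 18 were higher and 14 lower (78.0% called, where 56.2% of all genes tested were called, 30.2% higher and 25.9% lower, and 66.8% of those with a mean of at least 40 CPM). The calls of 28 genes were shared with the same direction, 16 higher and 12 lower, which is 28 of the 30 called in KO and of the 32 called in WT cells. Effector and naive libraries did not overlap for 34 of 41 genes in KO and 33 in WT cells, where 63.9% and 61.5% of all genes tested had this. None was called in opposite directions, and 7 were called in neither. Median log2 fold changes were 0.062 in KO and 0.003 in WT cells, against 0.008 and 0.006 over all genes tested. Called changes ran from -1.06 to 1.20 in WT cells, beside Cd44, which encodes a surface marker of the gates, at 3.78. The 4 regulatory T cell markers summed to 1068 to 1247 CPM in WT effector, against 125 to 138 CPM in WT naive libraries, with all 4 called higher. Genes that mark NK and innate-like T cells summed to 215 to 221 CPM in WT effector, against 14.9 to 19.6 CPM in WT naive libraries. Of these 6 genes, 5 were called higher and 1 lower. The part of both marker lists in the differences between effector and naive cells was not tested. Values in parentheses with ± in the following paragraphs are log2 fold changes of effector over naive cells with their SE.

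**Figure D4:**
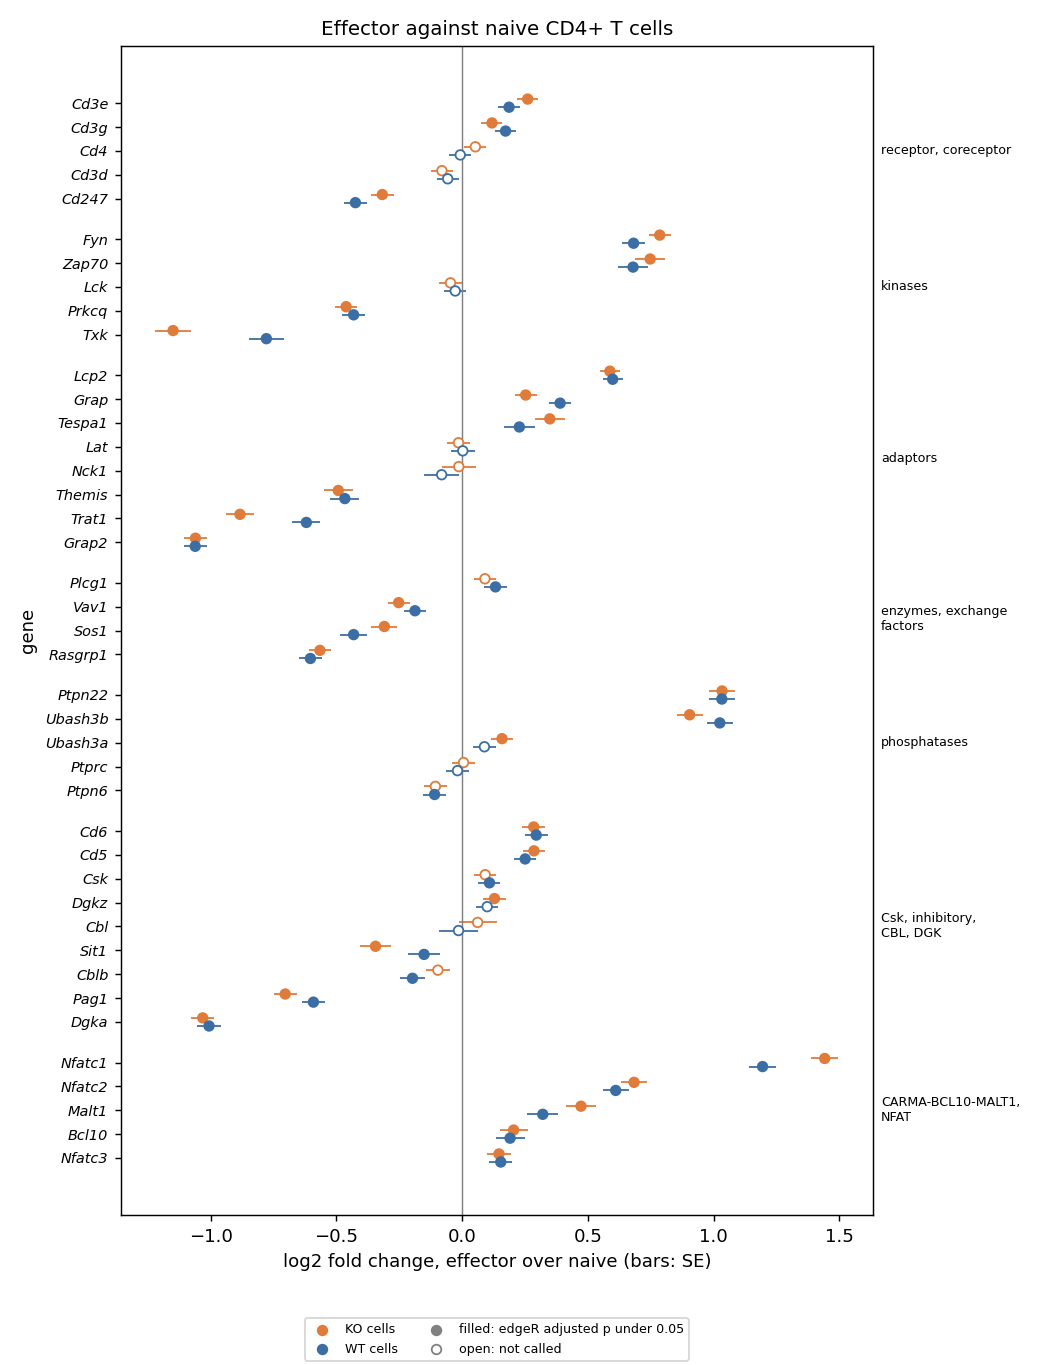
Log2 fold change of effector over naive cells for each gene (horizontal axis, bars are SE), grouped by role, in KO and WT cells; filled points have an edgeR adjusted p under 0.05. Both genotypes fall on the same side of zero for each of the 28 genes called in both.

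Of the receptor genes and coreceptor, 2 rose and 1 fell in effector cells of each genotype, though the Cd3g call in KO cells was lost without library 7, 8 or 9. Cd3e (0.19 ± 0.042 in WT, edgeR adjusted p = 0.00053) and Cd3g (0.17 ± 0.042, edgeR adjusted p = 0.0012) rose, whereas Cd247 fell (-0.32 ± 0.045 in KO, edgeR adjusted p = 1.9e-06, and -0.42 ± 0.046 in WT, edgeR adjusted p = 2.6e-08). The fall of Cd247 was seen without overlap in both genotypes, at 391, 396 and 405 CPM in WT effector against 500, 552 and 548 CPM in WT naive libraries. The FPKM ratio of Cd247 to Cd3e was 0.265 to 0.276 in KO effector, against 0.385 to 0.423 in KO naive libraries, and 0.231 to 0.244 in WT effector, against 0.345 to 0.373 in WT naive libraries. Cd3d did not pass (-0.057 ± 0.043 in WT, 95% interval -0.15 to 0.03), nor did Cd4 (-0.007 ± 0.044, -0.1 to 0.08). Cd3g, Cd3d and Cd3e lie in a row on chromosome 9, with gaps of 1.35 and 11.4 kb, and Cd4 lies 126 kb from Ptpn6 on chromosome 6.

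Among kinases, Fyn and Zap70 rose, Txk and Prkcq fell, and Lck did not pass. Fyn, a SRC family kinase beside LCK, stood at 614, 668 and 615 CPM in KO effector, against 368, 366 and 367 CPM in KO naive libraries (log2 fold change 0.79 ± 0.044, edgeR adjusted p = 1.8e-13). In WT cells it stood at 588, 593 and 587 CPM in effector and 362, 384 and 357 CPM in naive libraries (0.68 ± 0.044). Zap70 had 326, 409 and 364 CPM in KO effector and 224, 211 and 220 CPM in KO naive libraries (log2 fold change 0.75 ± 0.059, edgeR adjusted p = 4e-10). No effector library of either gene overlapped a naive one. In WT cells Zap70 had 345, 360.3 and 338 CPM in effector and 216, 223 and 211 CPM in naive libraries (0.68 ± 0.06). Txk, described above, was lower in effector than in naive cells, with log2 fold changes of -1.15 ± 0.071 in KO (edgeR adjusted p = 1.1e-10) and -0.78 ± 0.071 in WT cells (edgeR adjusted p = 2.8e-08). Prkcq encodes protein kinase C theta, which links the receptor to NF-kB. It had 371, 360.4 and 397 CPM in KO effector and 518, 516 and 518 CPM in KO naive libraries (log2 fold change -0.46 ± 0.045, edgeR adjusted p = 3.9e-09), and 369, 386 and 404 CPM in WT effector and 514, 525 and 522 CPM in WT naive libraries (-0.43 ± 0.045). Lck gave 1042, 1069 and 1022 CPM in WT effector and 1070, 1093 and 1030 CPM in WT naive libraries, which overlap, and its 95% interval was -0.14 to 0.05 in KO and -0.12 to 0.06 in WT cells.

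Of 8 adaptors, Lcp2, Grap and Tespa1 rose and Grap2, Trat1 and Themis fell in effector cells of both genotypes, while Lat and Nck1 did not pass. Grap2 encodes GADS, which bridges LAT to SLP-76, and had the largest fall of the 41 in WT cells. Its level was 423, 389 and 398 CPM in KO effector, against 869, 833 and 822 CPM in KO naive libraries (log2 fold change -1.06 ± 0.046, edgeR adjusted p = 1.3e-15). WT cells gave 420.3, 399.9 and 439.5 CPM in effector and 881, 875 and 873 CPM in naive libraries (-1.06 ± 0.046). Effector and naive libraries did not overlap in either genotype. Its partner Lcp2, which encodes SLP-76, went the other way, at 477, 468 and 474 CPM in KO effector and 312, 321 and 311 CPM in KO naive libraries (log2 fold change 0.59 ± 0.04, edgeR adjusted p = 6.5e-12). In WT cells Lcp2 had 446, 445 and 464 CPM in effector and 294, 297 and 305 CPM in naive libraries (0.60 ± 0.04). Trat1, already lower in KO, was also lower in effector than in naive cells, with log2 fold changes of -0.88 ± 0.057 in KO (edgeR adjusted p = 2.1e-12) and -0.62 ± 0.055 in WT cells (edgeR adjusted p = 1e-09), so that KO effector cells held the lowest and WT naive cells the highest level of the 4 groups. Themis changed by -0.49 ± 0.057 in KO (edgeR adjusted p = 9.7e-08) and -0.47 ± 0.057 in WT cells, from the libraries listed above. Grap, a relative of GRB2, changed by 0.39 ± 0.044 in WT cells (edgeR adjusted p = 5.2e-08) and Tespa1 by 0.23 ± 0.061 (edgeR adjusted p = 0.0027). Lat, with 673, 715 and 679 CPM in WT effector and 705, 696 and 659.9 CPM in WT naive libraries, had a 95% interval of -0.09 to 0.1.

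The enzyme and exchange factor genes mostly fell. Rasgrp1, a RAS exchange factor that responds to diacylglycerol, stood at 445, 401 and 418 CPM in KO effector, against 618, 623 and 629.5 CPM in KO naive libraries (log2 fold change -0.56 ± 0.045, edgeR adjusted p = 1.1e-10), and at 436, 446 and 459 CPM in WT effector, against 655, 695 and 685 CPM in WT naive libraries (-0.60 ± 0.045). Sos1, the other RAS exchange factor, had 69.3, 60.7 and 62.4 CPM in KO effector and 77.1, 80.8 and 80.6 CPM in KO naive libraries (log2 fold change -0.31 ± 0.052, edgeR adjusted p = 1.7e-05), and 57.0, 55.9 and 58.6 CPM in WT effector and 77.8, 76.3 and 77.1 CPM in WT naive libraries (-0.43 ± 0.053). Both genes kept effector below naive libraries without overlap. Vav1, an exchange factor for RAC, had a smaller fall (-0.19 ± 0.044 in WT, edgeR adjusted p = 0.00077). Plcg1, phospholipase C gamma 1, did not pass in KO cells (0.091 ± 0.044, edgeR adjusted p = 0.084) and rose in WT cells (0.13 ± 0.045, edgeR adjusted p = 0.014), a call lost without library 2 or 6 at edgeR adjusted p of 0.096 and 0.11. Its KO and WT changes differed by -0.042 ± 0.063, which did not pass (edgeR adjusted p = 0.89).

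Ptpn22 and Ubash3b, phosphatase genes of the negative arm, rose in effector cells. Ptpn22, a tyrosine phosphatase of LCK and ZAP-70, had 338, 337 and 325 CPM in KO effector, against 167, 162 and 159.7 CPM in KO naive libraries (log2 fold change 1.03 ± 0.05, edgeR adjusted p = 1.2e-14). In WT cells it had 369.9, 319 and 335 CPM in effector and 169, 159 and 173 CPM in naive libraries (1.03 ± 0.051). Ubash3b, which encodes STS-1, had 95.5, 99.2 and 89.7 CPM in KO effector and 51.3, 52.4 and 48.4 CPM in KO naive libraries (log2 fold change 0.91 ± 0.051, edgeR adjusted p = 2.1e-13), and 104, 102 and 101 CPM in WT effector and 51.5, 48.0 and 51.3 CPM in WT naive libraries (1.02 ± 0.053). Every effector library lay well above every naive library for both. Ubash3a, its T cell relative STS-2, passed in KO cells (0.16 ± 0.046, edgeR adjusted p = 0.0045) and not in WT cells (0.089 ± 0.046, edgeR adjusted p = 0.11); the 2 changes differed by 0.070 ± 0.065 (edgeR adjusted p = 0.8). Ptpn6, which encodes SHP-1, was called lower in WT cells at -0.11 ± 0.046 (edgeR adjusted p = 0.05 after rounding, just under the threshold), a call that held under 9 of 20 alternatives. It was lost without library 1, 2, 4, 5, 6, 7 or 9. In KO cells its change was -0.11 ± 0.046 (edgeR adjusted p = 0.054), which passed under 11 of 20 alternatives. Ptprc, at 2200, 1996 and 2109 CPM in WT effector and 2208, 2089 and 2086 CPM in WT naive libraries, overlapped between them (-0.018 ± 0.048, 95% interval -0.12 to 0.08).

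The remaining negative regulators moved in both directions. Dgka, which with Dgkz removes diacylglycerol, had 1040, 981 and 1055 CPM in KO effector, against 2155, 2087 and 2041 CPM in KO naive libraries (log2 fold change -1.03 ± 0.046, edgeR adjusted p = 2.7e-15), and 997, 941 and 1029 CPM in WT effector, against 2049, 1949 and 1959 CPM in WT naive libraries (-1.01 ± 0.046). In KO cells the falls of Txk and Grap2 were larger, and in WT cells that of Grap2. Dgkz changed by 0.13 ± 0.045 in KO cells (edgeR adjusted p = 0.017), a call lost without library 8, 9 or 11, and by 0.10 ± 0.045 in WT cells (edgeR adjusted p = 0.062). These 2 changes of Dgkz differed by 0.029 ± 0.063, which did not pass (edgeR adjusted p = 0.94). Pag1 changed by -0.70 ± 0.046 in KO (edgeR adjusted p = 3.3e-12) and -0.59 ± 0.046 in WT cells (edgeR adjusted p = 8.8e-11), whereas Csk, the kinase that PAG recruits, changed by 0.11 ± 0.044 in WT cells (edgeR adjusted p = 0.038), a call lost without library 1, 3, 5, 6, 8 or 9. Cd5 (0.25 ± 0.044 in WT, edgeR adjusted p = 2.9e-05) and Cd6 (0.29 ± 0.045 in WT, edgeR adjusted p = 5.1e-06), inhibitory scavenger receptors encoded 50.3 kb apart on chromosome 19, rose together in both genotypes. Sit1, a transmembrane adaptor that binds phosphatases, changed by -0.34 ± 0.061 in KO cells (edgeR adjusted p = 3.6e-05) and by -0.15 ± 0.062 in WT cells (edgeR adjusted p = 0.042), the second of which was lost without library 1, 2, 4 or 6. Cblb, a ubiquitin ligase that restrains T cell activation, did not pass in KO cells (-0.096 ± 0.048, edgeR adjusted p = 0.088) and fell in WT cells (-0.20 ± 0.048, edgeR adjusted p = 0.0012), and Cbl passed in neither. The 2 changes of Cblb differed by 0.10 ± 0.068, which did not pass (edgeR adjusted p = 0.69).

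All 5 genes of the NF-kB and NFAT ends of the pathway rose in both genotypes. Nfatc1 had the largest rise of the 41, by 1.44 ± 0.055 in KO (edgeR adjusted p = 1.1e-16) and 1.20 ± 0.055 in WT cells (edgeR adjusted p = 4.8e-15), with the libraries given above. Nfatc2 stood at 157, 179.7 and 166 CPM in KO effector, against 105, 101 and 107 CPM in KO naive libraries (log2 fold change 0.68 ± 0.051, edgeR adjusted p = 3.6e-11), and at 169, 158 and 167 CPM in WT effector, against 111, 110.4 and 102 CPM in WT naive libraries (0.61 ± 0.052). Nfatc3 changed by 0.15 ± 0.046 in KO cells (edgeR adjusted p = 0.0089), a call lost without library 7, and by 0.15 ± 0.047 in WT cells (edgeR adjusted p = 0.007), a call lost without library 1 or 6. Malt1, a paracaspase, and Bcl10, its adaptor, form the complex with CARMA1 that leads to NF-kB. Malt1 changed by 0.47 ± 0.061 in KO (edgeR adjusted p = 9.9e-07) and 0.32 ± 0.062 in WT cells, and Bcl10 by 0.20 ± 0.055 in KO (edgeR adjusted p = 0.0028) and 0.19 ± 0.058 in WT cells. Without library 1 or 2 the WT call of Bcl10 was lost.

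Some related genes of the list changed unequally between effector and naive cells. The ratio of Grap2 to Grap, from FPKM in each library, was 0.446 to 0.468 in KO effector and 1.11 to 1.16 in KO naive libraries, and 0.433 to 0.493 in WT effector and 1.26 to 1.32 in WT naive libraries. Grap2 was thus below Grap per length in every effector library and above it in every naive library, with each gene's change passing its own test in opposite directions. For Dgka over Dgkz the ratio was 2.29 to 2.68 in KO effector, against 5.55 to 5.6 in KO naive, and 2.37 to 2.55 in WT effector, against 5.12 to 5.64 in WT naive libraries. Dgka was the higher of the pair in all 12 libraries. Fyn over Lck gave 0.354 to 0.38 in KO effector, against 0.201 to 0.213 in KO naive, and 0.335 to 0.347 in WT effector, against 0.204 to 0.212 in WT naive libraries. Ubash3b over Ubash3a gave 0.563 to 0.645 in KO effector, against 0.346 to 0.376 in KO naive, and 0.681 to 0.759 in WT effector, against 0.361 to 0.394 in WT naive libraries. Nfatc1 over Nfatc3 gave 0.772 to 0.938 in KO effector, against 0.339 to 0.37 in KO naive, and 0.652 to 0.736 in WT effector, against 0.326 to 0.351 in WT naive libraries. Cblb over Cbl was 0.497 to 0.567 in KO effector, against 0.584 to 0.602 in KO naive libraries, and overlapped between WT effector, 0.521 to 0.623, and WT naive libraries, 0.602 to 0.695. Cd6 over Cd5 overlapped between effector and naive libraries in both genotypes. It was 1.16 to 1.18 in KO effector, against 1.17 in KO naive, and 1.12 to 1.18 in WT effector, against 1.11 to 1.12 in WT naive libraries. These ratios are descriptions, and the treatment of reads that fit more than 1 of the related genes is unknown here.

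**Figure D5:**
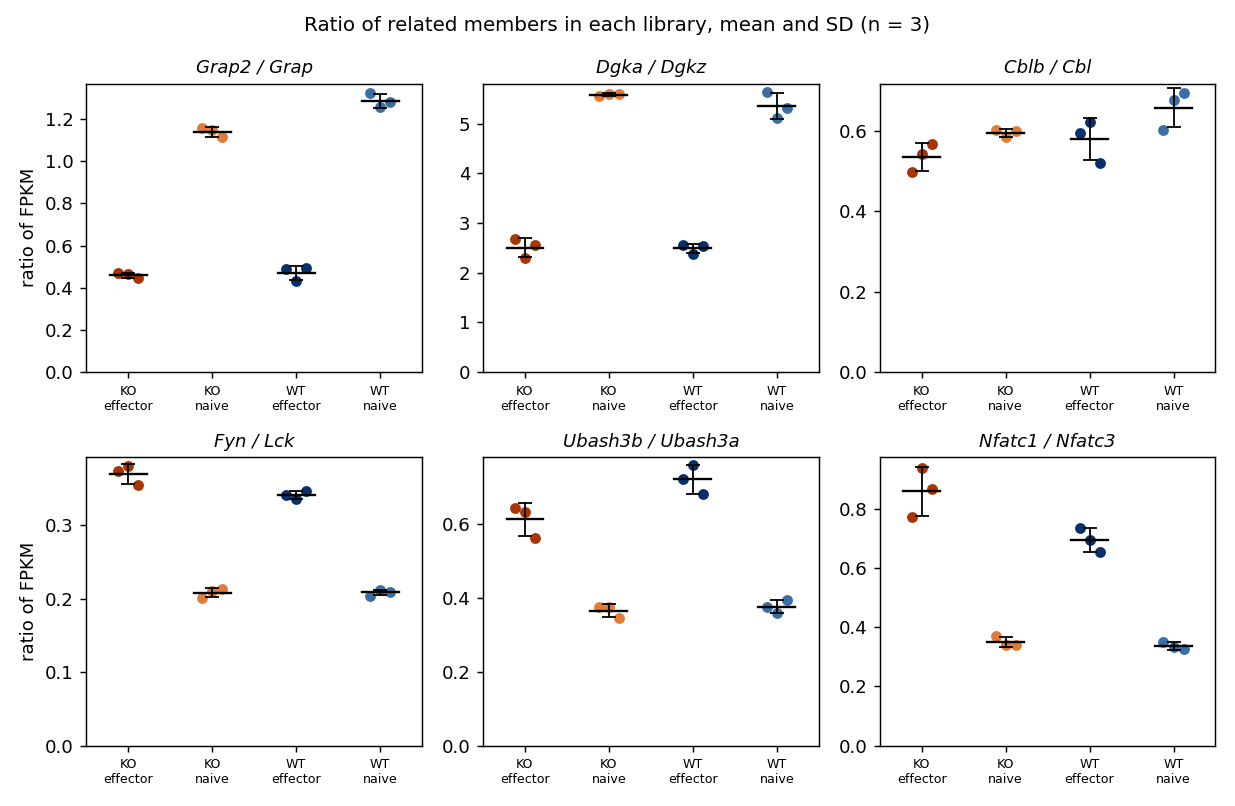
Ratio of FPKM of 6 pairs of related genes (vertical axis, no unit), with 1 point per library, a bar at the mean and whiskers of 1 SD (n = 3). Effector and naive libraries separate for 5 pairs in both genotypes, and those of WT cells overlap for Cblb over Cbl.

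Upstream sequence was read for the called genes that a RefSeq table of GRCm38.p6 starts covers, which held 34 of the 41. Cd4, Cd6, Grap, Malt1, Nfatc1, Pag1 and Tespa1 had no entry. Shown are the 250 bases before the outermost listed start of the 3 genes called for KO against WT that had an entry, Trat1 (minus strand, chr16:48772063-48772312), Txk (minus strand, chr5:72752778-72753027) and Cd247 (plus strand, chr1:165788431-165788680). Beside them stand Grap2 (plus strand, chr15:80623233-80623482), whose listed start lies inside the deposited gene model, and Ptpn22 (plus strand, chr3:103859545-103859794), the largest fall and the largest rise among entries for effector against naive in WT cells. Each is written 5′ to 3′ on the gene's strand, and capitals mark matches on either strand to GGAA (the ETS core), TGTGGT (RUNX), CTTTGA (TCF and LEF), TGGAAA (NFAT, which overlaps the ETS core) and TGANTCA (AP-1).
Trat1: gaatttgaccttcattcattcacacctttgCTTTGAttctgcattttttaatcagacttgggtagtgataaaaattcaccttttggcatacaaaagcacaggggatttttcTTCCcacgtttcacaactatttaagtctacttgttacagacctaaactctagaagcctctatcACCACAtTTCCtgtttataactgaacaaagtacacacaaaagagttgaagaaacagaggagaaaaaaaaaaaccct
Txk: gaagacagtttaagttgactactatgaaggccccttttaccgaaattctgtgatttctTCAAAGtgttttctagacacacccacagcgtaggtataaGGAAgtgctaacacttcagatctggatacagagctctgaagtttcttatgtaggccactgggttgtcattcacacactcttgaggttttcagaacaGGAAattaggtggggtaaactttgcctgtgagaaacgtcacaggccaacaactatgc
Cd247: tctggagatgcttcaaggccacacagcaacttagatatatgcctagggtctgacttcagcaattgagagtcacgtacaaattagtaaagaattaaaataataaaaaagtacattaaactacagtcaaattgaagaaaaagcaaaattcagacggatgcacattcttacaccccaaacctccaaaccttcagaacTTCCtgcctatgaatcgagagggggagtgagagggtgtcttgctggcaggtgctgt
Grap2: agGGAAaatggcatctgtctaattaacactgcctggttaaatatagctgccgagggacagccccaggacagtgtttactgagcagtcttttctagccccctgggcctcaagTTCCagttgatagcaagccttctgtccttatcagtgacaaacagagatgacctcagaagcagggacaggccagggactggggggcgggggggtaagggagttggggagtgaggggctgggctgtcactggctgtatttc
Ptpn22: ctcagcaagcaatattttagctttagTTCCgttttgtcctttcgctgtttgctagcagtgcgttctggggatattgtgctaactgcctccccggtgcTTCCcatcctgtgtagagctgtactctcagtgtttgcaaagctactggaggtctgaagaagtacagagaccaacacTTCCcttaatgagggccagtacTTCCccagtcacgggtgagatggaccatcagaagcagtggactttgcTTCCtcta
Trat1 and Txk each held 1 match to CTTTGA, as did 9 of the 34 promoters of the list (26.5%) and 14.1% of 27025 promoters of all genes. GGAA was in 32 of 34 (94.1%), against 93.4% of all, TGTGGT in 3 of 34 (8.82%), against 14.2%, and TGGAAA in 7 of 34 (20.6%), against 18.7%. TGANTCA was in none of the 34, against 6.85% of all. CANNTG, the E-box, not marked in the sequences, was in 21 of 34 (61.8%), against 66.1%. A match is a run of letters and not a bound site, and no match says only that the letters are not in this window.

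The rest of the pathway was described with a list of 65 other signalling genes, all of which were tested. For effector against naive, 36 rose and 17 fell in KO cells (81.5%, where 58.4% of all genes tested were called, 31.6% higher and 26.8% lower). In WT cells 35 rose and 16 fell (78.5%, where 56.2% of all genes tested were called, 30.2% higher and 25.9% lower). The median log2 fold change of the 65 was 0.16 in KO and 0.18 in WT cells, against 0.008 and 0.006 over all genes tested. The smallest p-values of rises in WT cells were those of the receptor phosphatase Ptprj (4.87), the inhibitory adaptors Lax1 (1.57) and Sla (1.33), and the STAT5-induced Cish (2.00). Among the falls were the diacylglycerol kinase Dgkd (-0.78), the TEC family kinase Tec (-1.15) and the PI3 kinase subunit Pik3cd (-0.68). For KO against WT, 1 of the 65 rose and 1 fell in naive cells (3.08%, where 1.18% of all genes tested were called), Cish (0.43 ± 0.071, edgeR adjusted p = 0.0017) and Tec (-0.28 ± 0.066, edgeR adjusted p = 0.035). In effector cells 3 rose and 2 fell (7.69%, where 3.16% of all genes tested were called): Cish (0.32 ± 0.058, edgeR adjusted p = 0.0028), the phosphatase Ptpn11 (0.22 ± 0.053) and the kinase Prkca (0.24 ± 0.059) rose, and the adaptor Dok2 (-0.24 ± 0.057) and the calcineurin subunit Ppp3cc (-0.21 ± 0.058) fell, with edgeR adjusted p of 0.026, 0.029, 0.017 and 0.041 for these last 4. Medians of the 65 were 0.021 in effector and 0.007 in naive cells.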

How the data were processed

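Per the labels' protocols, poly(A) RNA libraries were made with a stranded kit. The authors deposited raw counts per gene and FPKM, and the submitters' processing notes name STAR, Picard and DESeq2 1.30.0 without roles. The sources do not state the counter or its strand setting. Column names give the group and not the sample's own number, so libraries are numbered by column. From the counts, edgeR 4.0.16 in R 4.3.3 fitted 1 quasi-likelihood model to all 12 libraries after TMM scaling and its filter on low counts, with Benjamini-Hochberg adjustment over 15905 genes and a threshold of 0.05. The common biological variation was 5.21%. CPM are TMM-scaled, SE and 95% intervals come from the fit, and FPKM deposited by the authors serve comparisons between genes. The script was tested on simulated data. No replicate pair agreed within sampling noise.

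Values per library are given for genes called for KO against WT and for the 16 largest changes called for effector against naive in WT cells; of the rest of the pathway, at most 4 called genes per direction and comparison are named, and some named by that rule are not reported here. Members and lists were chosen with earlier results of these data known. Alternatives were DESeq2 1.42.0 and its size factors, limma-voom (limma 3.58.1), other filters, fits restricted to the compared groups, limma on log2(FPKM + 1) and log2(FPKM + 0.1), and leaving out each library.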

Additional observations from a re-analysis of the deposited data

How the results depend on the processing

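No direction of a called gene reversed under the 20 alternatives. For KO against WT in naive cells the number of the 41 genes called was 1, and it was 2 in a fit of only the groups compared, 0 by limma on log2(FPKM + 1) and 0 on log2(FPKM + 0.1), and 0 to 2 when 1 library was left out (0 without library 2, 7 or 9, and 2 without library 3). For KO against WT in effector cells it was 5, and it was 1 in a fit of only the groups compared (Trat1), 2 on log2(FPKM + 1) (Trat1 and Txk), 1 on log2(FPKM + 0.1) (Trat1), and 2 to 5 when 1 library was left out, with 2 without library 6 or 11 and 3 without library 5 or 12. For the difference between the KO effects it was 0, and it was 3 with no filter on low counts and 0 to 2 when 1 library was left out (2 without library 10). For effector against naive the leave-one-out range was 28 to 31 in KO and 27 to 32 in WT cells. The cause of these changes in number was not tested. Of the genes called for effector against naive, 27 of 30 in KO and 26 of 32 in WT cells passed under all 20 alternatives. Over all genes, DESeq2 called 540 for KO against WT in effector cells and 248 in naive cells, edgeR with no filter 959 and 501, and a fit of only the groups compared 230 and 528, where the fit reported called 503 and 187. No paired analysis was possible because the count columns carry no replicate number of the sample titles. Each of the 41 genes had at least 524 counts in each library.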
